A study of Mus musculus with 8 samples.

Results

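The clustered protocadherin genes encode cell-surface adhesion proteins and lie in the alpha, beta and gamma clusters, which follow each other on the plus strand of mouse chromosome 18. The members were the rows of the deposited count and FPKM tables whose Ensembl gene identifier maps to a protein-coding symbol of the Pcdha, Pcdhb or Pcdhg series. There were 57 of them among 55471 rows, with 14 in the alpha, 22 in the beta and 21 in the gamma cluster. In the GRCm38 build they span 911690 bp, from position 36930184 to 37841873. The RNA came from motor neurons differentiated from mouse HBG3 embryonic stem cells, a line in which the Hb9 promoter, active in motor neurons, drives green fluorescent protein, collected 3 days after plating. Groups were named by the capture probes. ODD and EVEN were separate sets of biotinylated antisense probes of 20 nt against the long noncoding RNA Lhx1os, LacZ probes, against a bacterial mRNA, served as negative control, and Input libraries held RNA of the cultures that was not captured. All groups shared the cell line and the differentiation, the labels give no allele or drug that sets a group apart, and each group had 2 libraries of total RNA depleted of ribosomal RNA, from 2 experiments numbered replicate 1 and replicate 2.

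In the alpha and gamma clusters each member has a promoter and a large variable exon of its own, which is spliced to constant exons that all members of the cluster share. The beta genes have no constant exons. A neuron is known to transcribe only some of the variable promoters, chosen at random by enhancers that reach them through CTCF and cohesin, while the C-type members at the end of the alpha and gamma clusters are expressed more uniformly. The proteins bind the same isoform on another cell or branch and are best known for self-avoidance of neurites, and the gamma cluster also for the survival of spinal interneurons.

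Libraries held 7632775 to 24628435 counts, with LacZ replicate 1 the shallowest and Input replicate 1 the deepest. The 57 members together had 7788 and 21688 counts in these libraries. Lhx1os itself had 2.27 and 2.97 CPM in Input, 2.06 and 2.44 with LacZ probes, 180 and 35.7 with ODD probes, and 150 and 25.4 with EVEN probes, with replicate 1 first in each pair. All 7 motor neuron markers (Mnx1, Isl1, Isl2, Lhx3, Chat, Slc18a3 and Slc5a7) had counts, and their summed level was 177 to 350 CPM. Markers of neural progenitors summed to 2142 to 2920 CPM, those of oligodendrocytes to 73.5 to 579.6 CPM and those of astrocytes to 188 to 447 CPM. These sums rest on few genes, as 2 of 3 oligodendrocyte and 2 of 4 astrocyte markers passed the filter on low counts. Single markers in Input ranged from 0 to 44.0 FPKM for oligodendrocytes, 0.108 to 26.5 FPKM for astrocytes and 0.834 to 280 FPKM for progenitors. The pluripotency markers summed to at most 0.453 CPM, with Pou5f1 and Dppa5a at 0 in every library, and the microglia markers to at most 0.341 CPM. No reported marker that passed the filter on low counts was called higher or lower in a pull-down against Input by edgeR's quasi-likelihood test. With the replicate number as a block in that test, the motor neuron marker Chat rose in all 3 pull-downs, and the oligodendrocyte markers Mbp and Sox10, the progenitor marker Olig2 and the fibroblast marker Dcn fell in all 3, while the neuron marker Tubb3 fell in LacZ and EVEN and the astrocyte marker Slc1a3 in ODD.

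The shared constant exons bear on what a count means. The deposited length of all 57 members was equal to their merged exons, constant exons included. Of 764 annotated genes with no exon base of their own, 697 (91.2%) had 0 counts in all 8 libraries, against 48.5% of the other annotated genes, and all 4 such rows within the protocadherin interval were at 0. FPKM therefore divides by exons from which few or no reads were counted in the alpha and gamma clusters. The members are also close paralogs, and the sources used here do not say how reads that match several of them were treated. Levels are given below as FPKM and also as the own-exon level, which is the FPKM rescaled from the full exon length to the exon bases that belong to 1 gene only. In Input the median alpha member was at 0.454 ± 0.0790 FPKM (SD, n = 2) but at 1.04 ± 0.151 on the own-exon scale. The median gamma member was at 1.63 ± 0.310 FPKM and 3.06 ± 0.644 on the own-exon scale, and the median beta member at 3.05 ± 0.629 and 3.13 ± 0.542. The gamma median was thus below the beta median in FPKM, and on the own-exon scale the difference was within the spread of replicates. Fold changes of a gene between libraries do not depend on this choice.

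Input held a few protocadherins at high levels and most of them low. In the gamma cluster Pcdhgc3, a C-type gene known for promoting dendrite branching, stood at 34.8 ± 20.9 FPKM (SD, n = 2). Next were the A-type genes Pcdhga7 at 5.67 ± 1.37, Pcdhga3 at 4.75 ± 1.09 and Pcdhga5 at 3.56 ± 0.589 FPKM, and the lowest was the B-type gene Pcdhgb5 at 0.522 ± 0.0724 FPKM. Pcdhgc3 alone held 54.0% and 38.9% of the gamma counts in the Input libraries. The other C-type genes of the cluster were lower, with Pcdhgc4, which is known to be required for interneuron survival, at 3.03 ± 1.33 FPKM and Pcdhgc5 at 0.608 ± 0.107 FPKM.

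In the beta cluster the highest members in Input were Pcdhb2 at 6.87 ± 1.14 FPKM (SD, n = 2), Pcdhb11 at 6.72 ± 1.26, Pcdhb22 at 6.21 ± 1.98 and Pcdhb6 at 6.08 ± 1.28. Their replicate ranges overlapped, so no order among these 4 can be read. Pcdhb1 was the lowest of all 57 members, at 0.113 ± 0.107 FPKM, with 12 and 2 counts in Input and 1 to 6 counts in each pull-down library. It was the only member that did not pass edgeR's filter on low counts, which left 56 members among 16524 genes tested.

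The alpha cluster was the lowest in Input. Its highest members were the C-type gene Pcdhac2, known for the spacing of serotonergic axons, at 0.961 ± 0.318 FPKM (SD, n = 2), then Pcdha3 at 0.708 ± 0.150, Pcdha11 at 0.605 ± 0.0779 and Pcdha2 at 0.538 ± 0.0751 FPKM. The lowest was Pcdha8 at 0.142 ± 0.0183 FPKM. The other C-type gene, Pcdhac1, was at 0.304 ± 0.0796 FPKM. Pcdha4 had the smallest share of exon bases of its own, since an exon of the annotated row Gm42416 covers its variable exon and leaves it 494 bases, or 8.56% of its deposited length. It stood at 0.161 ± 0.0478 FPKM and at 1.87 ± 0.559 on the own-exon scale.

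**Figure D1:**
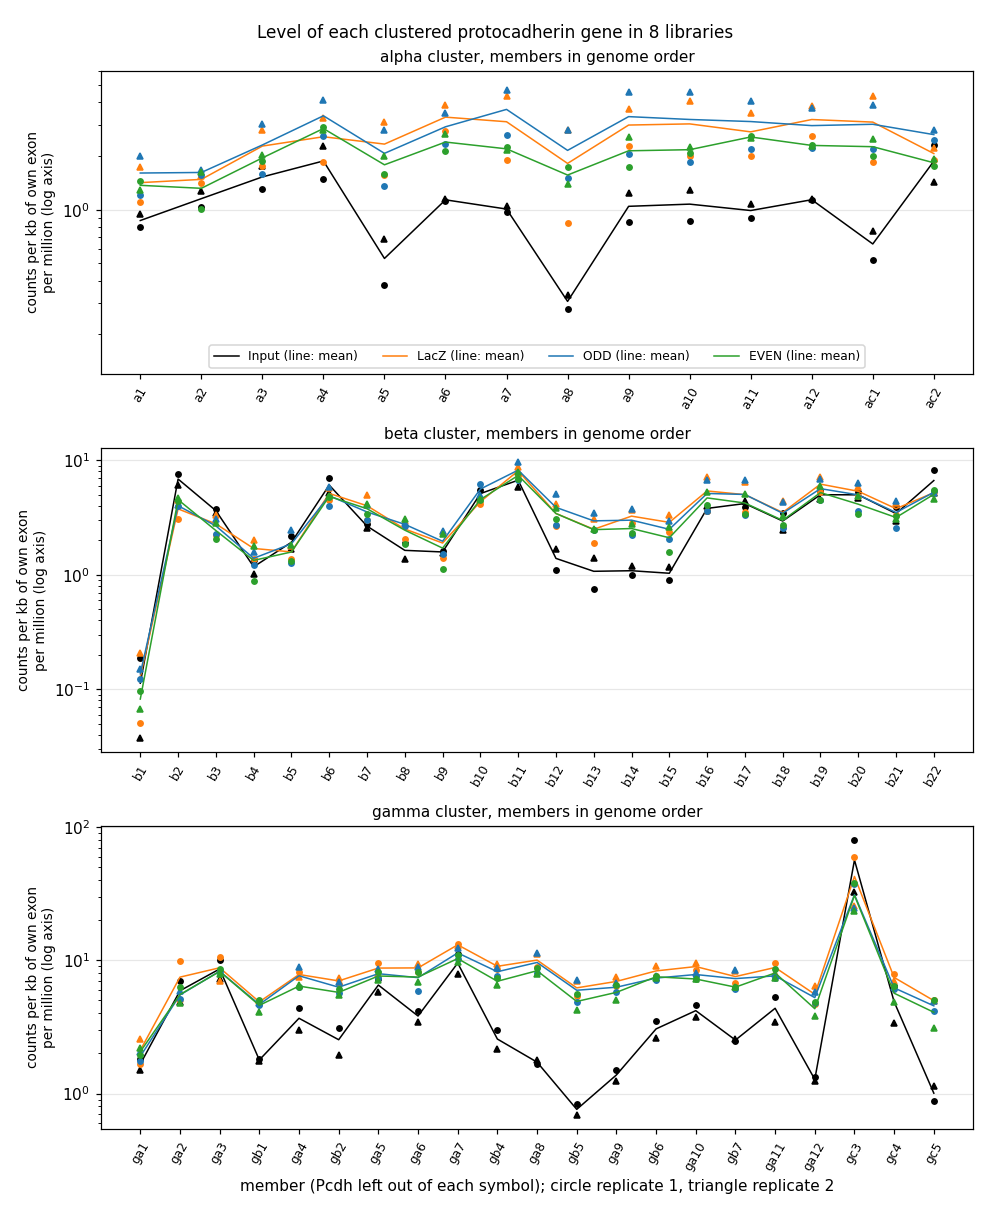
Own-exon level of each member (FPKM rescaled to the exon bases that belong to 1 gene only, log axis) in genome order, for the alpha, beta and gamma clusters. Points are the libraries, with replicate 1 as circles and replicate 2 as triangles, and lines join the means of 2; the black Input line dips at members such as Pcdha8 and Pcdhgb5, while the 3 pull-down lines stay closer to level and Pcdhgc3 is high in all 8 libraries.

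The pull-downs held more protocadherin RNA than Input from many members that were low in Input, and this was so for LacZ control probes as well as for Lhx1os probes. The Input libraries that rank members as low or high are also the base of the fold changes. A link between low Input level and a rise is therefore partly built in, and the size of that part was not tested. The same holds below wherever members are picked as the highest or lowest in Input. In LacZ against Input 16 of 56 members rose, 12 of them in the gamma, 3 in the alpha and 1 in the beta cluster, where 6.98% of all tested genes rose. In ODD 15 rose (11 gamma, 3 alpha and 1 beta), against 6.46% of all genes. In EVEN 9 rose, all in the gamma cluster, against 5.37%. None fell in any pull-down, where 0.43% of all genes fell in LacZ, 0.375% in ODD and 0.284% in EVEN. Calls rest on edgeR's quasi-likelihood test, with p-values adjusted by Benjamini-Hochberg over all genes tested and a threshold of 0.05. The pull-downs share the Input libraries, so these counts are not independent of each other. Pcdha4 in 1 and Pcdha8 in both Input libraries were under the filter's level, and among the 54 members above it in both Input libraries 16, 14 and 9 rose in LacZ, ODD and EVEN.

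The median log2 fold change of the members was 0.62 for LacZ, 0.81 for ODD and 0.65 for EVEN, against -0.05, -0.03 and -0.00 over all tested genes. By cluster, in the same order of pull-downs, the alpha median was 1.46, 1.46 and 1.05, the gamma median 1.15, 1.04 and 0.99, and the beta median 0.22, 0.23 and 0.09. The replicate number as a block removes only a difference between the experiments that all 4 groups share. With this block 27, 27 and 26 members rose, against 12.7%, 12.6% and 12.8% of all genes. In the same fit 1, 2 and 1 fell, against 7%, 6.55% and 6.41%. In 29 of 56 members all 6 pull-down libraries were above both Input libraries in CPM, as they were in 17.7% of all tested genes. In 2 members, Pcdhb2 and Pcdhb3, all 6 were below, as in 13.5% of all genes.

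Leaving out 1 library left its group with 1 library, and fewer genes were then called against Input over all genes tested. Many of the member calls were lost too, most of them when an Input library was left out. Without Input replicate 1 the member median was 0.82, 0.93 and 0.77 for LacZ, ODD and EVEN, against -0.03, -0.01 and 0.01 over all genes. Without Input replicate 2 the member median was 0.75, 0.75 and 0.59, against 0.02, 0.04 and 0.07. It was 0.67 for LacZ without LacZ replicate 2 and 0.56 for ODD without ODD replicate 2. Over every library left out the member median remained positive, from 0.56 to 0.93 over the 3 pull-downs.

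The gamma cluster held the largest changes. Pcdhgb5, the lowest gamma member of Input, had 3.91 and 3.17 CPM in Input, 24.5 and 31.5 with LacZ probes, 22.7 and 32.2 with ODD probes, and 26.1 and 20.2 with EVEN probes. Every pull-down library was far above both Input libraries, and the lowest of the 6 was an EVEN library. Its log2 fold change was 2.98 (SE 0.29, adjusted p 0.00288) for LacZ, 2.95 (SE 0.28, adjusted p 0.00312) for ODD and 2.70 (SE 0.28, adjusted p 0.00493) for EVEN by edgeR's test. Pcdhga8 followed, with 4.24 and 4.43 CPM in Input and between 20.3 and 27.9 CPM in the pull-downs, at log2 fold changes of 2.50 (SE 0.24) for LacZ, 2.47 (SE 0.24) for ODD and 2.30 (SE 0.23) for EVEN. Pcdhga9 was at 2.29, 2.17 and 2.07 in the same order, and Pcdhga12 at 2.08, 2.02 and 1.78. All 3 were called in each pull-down.

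All 6 B-type genes (Pcdhgb1, Pcdhgb2, Pcdhgb4, Pcdhgb5, Pcdhgb6 and Pcdhgb7) rose in LacZ and in ODD, and 5 of 6 rose in EVEN, where Pcdhgb2 had a log2 fold change of 1.2 (adjusted p 0.0509). Their pull-down libraries were above both Input libraries in 6 of 6, as in 17.7% of all tested genes. Among the 12 A-type genes those that rose numbered 5, 4 and 3 in the order LacZ, ODD and EVEN. Pcdhga10 was called in LacZ at 1.05 (adjusted p 0.0191) and in ODD at 0.89 (adjusted p 0.038) and was at 0.81 (adjusted p 0.0588) for EVEN. The 3 A-type genes highest in Input were not called in any pull-down. Pcdhga3 had 26.5 and 18.8 CPM in Input and 17.6 to 27.2 CPM in the pull-downs, with log2 fold changes of -0.02, -0.07 and -0.04, and its groups overlapped. Pcdhga7 was at 0.41, 0.24 and 0.13 and Pcdhga5 at 0.38, 0.27 and 0.24 in the same order of pull-downs, and both overlapped Input.

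The 3 C-type genes of the gamma cluster went different ways. Pcdhgc5 had 4.12 and 5.21 CPM in Input, 22.7 and 22.2 with LacZ probes, 19.3 and 22.6 with ODD probes, and 23.4 and 14.8 with EVEN probes, all 6 pull-down libraries above Input. Its log2 fold change was 2.27 (SE 0.28, adjusted p 0.00535) for LacZ, 2.17 (SE 0.28, adjusted p 0.00678) for ODD and 2.04 (SE 0.28, adjusted p 0.0105) for EVEN by edgeR's test. Pcdhgc4 had 22.6 and 11.7 CPM in Input and 17.6 to 26.8 CPM in the pull-downs, with groups that overlapped and changes of 0.56, 0.33 and 0.23 that were not called. Pcdhgc3, the most abundant member, had 277 and 110 CPM in Input, 199 and 83.6 with LacZ probes, 127 and 83.3 with ODD probes, and 129 and 82.7 with EVEN probes. Across the experiments the pull-downs overlapped Input, but within each replicate all 3 pull-downs were below their own Input, at ratios of 0.461 to 0.719 in replicate 1 and 0.75 to 0.759 in replicate 2. The log2 fold change was -0.46 (SE 0.55, adjusted p 0.764) for LacZ, -0.88 (SE 0.56, adjusted p 0.49) for ODD and -0.87 (SE 0.56, adjusted p 0.478) for EVEN. With the replicate block Pcdhgc3 fell in ODD (adjusted p 0.0364) and in EVEN (adjusted p 0.0372). Over all alternatives the adjusted p ranged from 0.0256 to 0.977 for ODD and from 0.0297 to 0.977 for EVEN.

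**Figure D2:**
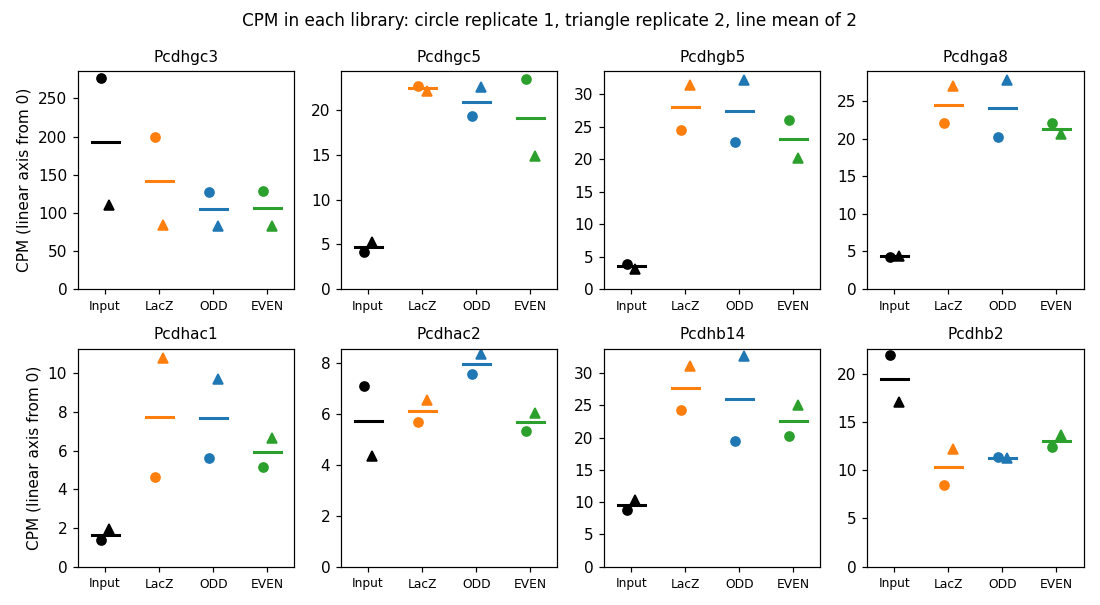
CPM of 8 members in every library (linear axes from 0, each panel with its own scale), with replicate 1 as circles, replicate 2 as triangles and the mean of 2 as a line. Pcdhgc5, Pcdhgb5, Pcdhga8, Pcdhac1 and Pcdhb14 have all 6 pull-down libraries above Input, Pcdhb2 has all 6 below, and Pcdhgc3 and Pcdhac2 overlap.

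The alpha cluster had fewer calls than the gamma cluster, although its median log2 fold change was 1.46 in LacZ against 1.15. All 14 members had a positive log2 fold change in LacZ and ODD and 13 of 14 had one in EVEN. In 10 of 14 every pull-down library was above Input, as in 17.7% of all tested genes. Pcdhac1 had 1.36 and 1.95 CPM in Input, 4.64 and 10.8 with LacZ probes, 5.63 and 9.71 with ODD probes, and 5.16 and 6.65 with EVEN probes. It rose in LacZ at 2.23 (SE 0.50, adjusted p 0.0418) and ODD at 2.21 (SE 0.49, adjusted p 0.0449) and was at 1.83 (SE 0.49, adjusted p 0.0898) for EVEN. Pcdha8, the lowest in Input, passed the filter through the pull-downs, which partly fixed its direction. It went from 0.700 and 0.828 CPM to between 2.06 and 6.83 CPM in the pull-downs and was called in ODD alone, at 2.78 (SE 0.60, adjusted p 0.0391), with 2.53 (adjusted p 0.0521) for LacZ and 2.36 (adjusted p 0.0743) for EVEN. Pcdha11 was also called in ODD, at 1.64 (adjusted p 0.0494), and was at 1.42 for LacZ and 1.39 for EVEN. Pcdha6 and Pcdha12 were called in LacZ, at 1.5 (adjusted p 0.0348) and 1.45 (adjusted p 0.0447).

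The other C-type gene of the alpha cluster was not called. Pcdhac2 had 7.09 and 4.33 CPM in Input, 5.67 and 6.53 with LacZ probes, 7.56 and 8.36 with ODD probes, and 5.33 and 6.02 with EVEN probes. The ODD libraries were above Input and the others lay between the Input libraries, at log2 fold changes of 0.10, 0.48 and -0.01 for LacZ, ODD and EVEN. Near the start of the cluster Pcdha2 was at 0.32, 0.48 and 0.22 and Pcdha3 at 0.54, 0.58 and 0.38 in the same order, none of them called. With the replicate block 9 of 14 alpha members rose in each pull-down and 9 rose in all 3, the adjoining genes from Pcdha5 to Pcdha12 and Pcdhac1. Over all genes 12.7%, 12.6% and 12.8% rose with the block in LacZ, ODD and EVEN.

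Most beta members were not called, with 1 member that rose in LacZ and ODD and 4 adjoining members that rose with the replicate block. Pcdhb14 had 8.73 and 10.3 CPM in Input, 24.2 and 31.1 with LacZ probes, 19.5 and 32.6 with ODD probes, and 20.2 and 24.99 with EVEN probes, and every pull-down library was above Input. It rose in LacZ at 1.54 (SE 0.30, adjusted p 0.0241) and in ODD at 1.45 (SE 0.30, adjusted p 0.0316) and was at 1.25 (SE 0.29, adjusted p 0.06) for EVEN. Pcdhb12 had 3.38 and 5.11 CPM in Input and 7.99 to 15.2 CPM in the pull-downs, with changes of 1.27, 1.46 and 1.33. With the replicate block 4 of 21 beta members rose in each pull-down, and 4 rose in all 3: Pcdhb12, Pcdhb13, Pcdhb14 and Pcdhb15, which are neighbours. Over all genes 12.7%, 12.6% and 12.8% rose with the block in LacZ, ODD and EVEN, so the beta count is not far above that share. Pcdhb13 and Pcdhb15 were singled out here after their values were seen.

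None of the 4 highest beta members of Input was called higher. Pcdhb2 had 21.9 and 17.0 CPM in Input, 8.51 and 12.2 with LacZ probes, 11.3 and 11.2 with ODD probes, and 12.4 and 13.7 with EVEN probes, so that all 6 pull-down libraries were lower than Input. The log2 fold change was -0.91 (SE 0.25, adjusted p 0.0845) for LacZ, -0.79 (SE 0.25, adjusted p 0.132) for ODD and -0.58 (SE 0.24, adjusted p 0.266) for EVEN. With the block Pcdhb2 fell in LacZ (adjusted p 0.0249) and ODD (adjusted p 0.0381), and over all alternatives the adjusted p ranged from 0.0135 to 0.325 for LacZ and from 0.0189 to 0.437 for ODD. Pcdhb22 was at -0.40, -0.35 and -0.38, Pcdhb6 at -0.29, -0.33 and -0.31 and Pcdhb11 at 0.23, 0.27 and 0.16 in the order LacZ, ODD and EVEN, and all 3 overlapped Input.

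The direction of the beta median depended on single libraries and on the GC correction. Without LacZ replicate 2 it was -0.08 for LacZ, without ODD replicate 2 -0.08 for ODD, and without Input replicate 2 or EVEN replicate 2 -0.04 and -0.17 for EVEN. The median GC content was 46.0% in beta, 47.3% in alpha and 53.1% in gamma members, against 48.8% over all tested genes. When each library's trend on GC content was removed together with the replicate block, the beta median was -0.10 for LacZ, -0.03 for ODD and -0.28 for EVEN. That fit left the median of all genes at -0.15, -0.15 and -0.13 in the same order, against -0.05, -0.04 and -0.01 with the block alone, and after recentring, an alternative added after the data were seen, the beta medians were 0.02, 0.09 and -0.17. The alpha and gamma medians remained positive in both fits, at 0.88 or more.

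**Figure D3:**
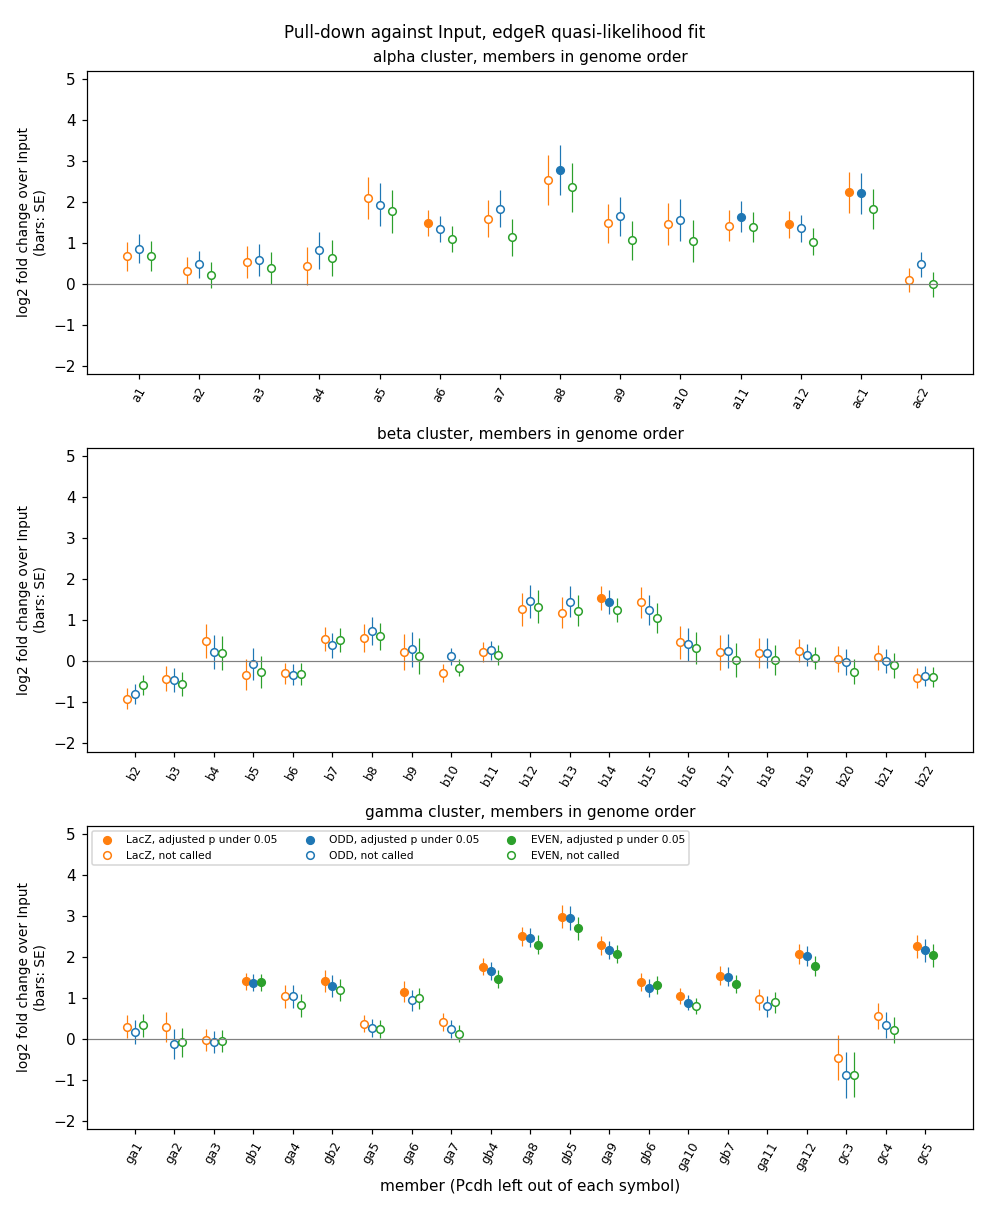
Log2 fold change over Input for the 56 tested members in genome order, with the SE as bars, for LacZ (orange), ODD (blue) and EVEN (green); filled points passed an adjusted p of 0.05 in edgeR's quasi-likelihood test. The 3 pull-downs, which share the same Input libraries, lie close together at each member. In the gamma cluster the values go up and down along the order, with Pcdhgb5 highest at 2.70 to 2.98 and Pcdhgc3 lowest at -0.88 to -0.46.

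The change was also read along each cluster. Over all 21 gamma members Spearman's rho between genome order and the log2 fold change was 0.32 for LacZ, 0.30 for ODD and 0.26 for EVEN, and over the 18 that are not C-type genes it was 0.56, 0.53 and 0.53. Over all 14 alpha members rho was 0.21, 0.30 and 0.27, and over the 12 that are not C-type genes 0.42, 0.55 and 0.50. In the beta cluster it was 0.15, 0.14 and 0.12 over 21 members. These are descriptions across genes of the same libraries, with Input shared between the pull-downs, and carry no test. In stretches drawn after the values were seen, the 9 members from Pcdhga1 to Pcdhga7 had a median of 0.41, 0.27 and 0.33 and the 9 from Pcdhgb4 to Pcdhga12 a median of 1.77, 1.66 and 1.46. The median was 0.49, 0.70 and 0.50 from Pcdha1 to Pcdha4 and 1.49, 1.64 and 1.12 from Pcdha5 to Pcdha12. In the beta cluster it was -0.03, 0.18 and -0.01 from Pcdhb2 to Pcdhb11, 1.35, 1.45 and 1.24 from Pcdhb12 to Pcdhb15, and 0.20, 0.16 and 0.04 from Pcdhb16 to Pcdhb22.

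Position in an alpha or gamma cluster also sets how many other members' transcription units run across a gene. The start of 34 tested members lies inside the annotated span of 1 or more upstream members, and 22 tested members have none. Of the 34, those that rose numbered 15, 14 and 9 in the order LacZ, ODD and EVEN, with a median log2 fold change of 1.41, 1.31 and 1.05. Of the 22, of which 20 are beta genes, those that rose numbered 1, 1 and 0, with a median of 0.24, 0.24 and 0.15. Over all tested genes 6.98%, 6.46% and 5.37% rose in the same order, so the calls among the 22 are near the share of all genes. In 23 of the 34 and in 6 of the 22 all pull-down libraries were above Input, as in 17.7% of all tested genes. A read on a variable exon can come from the gene's own promoter or from unspliced RNA of an upstream promoter, and in these counts the sources cannot be told apart. Pcdhb12 to Pcdhb15, a stretch drawn after the values were seen that rose with the replicate block, have no spanning member. The part of spanning transcription units in the changes was not tested.

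Of 28 other annotated rows within the interval 12 passed the filter, and 7 of these were under its level of 0.853 CPM in 1 or both Input libraries. The pseudogenes Gm36858, Gm18150 and Gm19035 lie between alpha members and inside the span of members on their own strand. They were under that level in both Input libraries and passed through the pull-downs, where they are high, so the filter partly fixed their direction and their values are a description. Gm19035 had 0.206 and 0.341 CPM in Input and 4 to 8.94 CPM in the pull-downs. The polymorphic pseudogene Pcdhgb8 in the gamma cluster was well above the filter in Input, with 4.61 and 3.85 CPM, and had 12.4 to 19.0 CPM in the pull-downs. It rose in LacZ, ODD and EVEN, at log2 fold changes of 1.79, 2.02 and 1.72. The minus-strand gene Taf7, a general transcription factor subunit between the beta and gamma clusters, had 29.2 and 30.2 CPM in Input and 23 to 33.6 CPM in the pull-downs, and the noncoding row 3222401L13Rik just before Pcdhga1 had 10.5 and 10.4 CPM and 9.71 to 14.0 CPM, neither of them called.

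Levels within a cluster were more even in the pull-downs than in Input. Without Pcdhgc3, the own-exon levels of the 20 other gamma members had a coefficient of variation of 72.2% and 65.4% in the Input libraries and of 28.0% to 33.8% in the 6 pull-down libraries. The highest of them exceeded the lowest 13.4-fold and 11.5-fold in Input and 4.45-fold to 8.08-fold in the pull-downs. In the alpha cluster the coefficient was 50.5% and 39.8% in Input and 21.7% to 28.1% in the pull-downs, and in the beta cluster 69.2% and 59.4% against 45.4% to 53.8%. The share of Pcdhgc3 in the gamma counts was 54.0% and 38.9% in Input and 15.9% to 31.2% in the pull-downs. The share of Pcdhgb5 was 0.765% and 1.12% in Input and 3.84% to 6.18% in the pull-downs. In none of these measures did a pull-down library reach the range of the Input libraries.

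Summed over a cluster, only the alpha counts separated every pull-down library from Input. The alpha sum was 36.7 ± 2.72 CPM (SD, n = 2) in Input, 85.7 ± 31.7 for LacZ, 93.3 ± 34.4 for ODD and 72.3 ± 6.23 for EVEN, and all 6 pull-down libraries were above both Input libraries. The gamma sum was 398 ± 161 CPM in Input, 582 ± 78.4 for LacZ, 511 ± 14.2 for ODD and 488 ± 67.1 for EVEN, and the groups overlapped. Without Pcdhgc3 the gamma sum was 235 and 173 CPM in Input and 358 to 443 CPM in the pull-downs, with no overlap. The beta sum was 318 ± 40.8 CPM in Input, 358 ± 77.6 for LacZ, 361 ± 88.6 for ODD and 335 ± 50.7 for EVEN, differences within the spread of replicates.

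The probe sets against Lhx1os were then set against the LacZ probes, which asks whether any protocadherin RNA came down with Lhx1os in particular. When ODD and EVEN were averaged and compared with LacZ, no member was called by edgeR's quasi-likelihood test, none had an unadjusted p under 0.05, and DESeq2 called 0 members. Over all genes edgeR called 0 and 218 had an unadjusted p under 0.05, and DESeq2 called 2. With no filter beyond 1 count edgeR called 57 of 28192 genes higher and 24 lower, and 0 members. The member median was -0.11, with -0.08 in alpha, -0.07 in beta and -0.16 in gamma, against 0.01 over all genes. All 21 gamma members were negative, between -0.42 and -0.03, where 54.1% of all genes were positive. They share the same LacZ libraries, so their signs are not independent. Without LacZ replicate 2, 6 of the 21 were positive, and without LacZ replicate 1, 5 were. The smallest p-values were those of Pcdhb10, at 0.26 (SE 0.19, p 0.2, adjusted p 1), and Pcdhga10, at -0.21 (SE 0.16, p 0.246, adjusted p 1). The sign of the member median rested on single libraries: it was 0.07 without LacZ replicate 2, -0.01 without ODD replicate 1, -0.23 without ODD replicate 2 and -0.25 without LacZ replicate 1. Taken one by one, ODD against LacZ, EVEN against LacZ and ODD against EVEN gave 0 calls over all genes in edgeR's test, where 170, 283 and 128 genes had an unadjusted p under 0.05. No member was among these, at member medians of -0.04, -0.17 and 0.16. Lhx1os was higher in CPM with its own probes than with LacZ probes in each replicate, yet edgeR's test did not call it either. A test that does not call the probe target cannot decide whether a member came down with Lhx1os. Input RNA was not captured, so in the comparisons with Input the capture and the probes cannot be told apart.

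The experiments differed for some members. No member moved by more than 1 on the log2 scale on average in the same direction in all 4 groups, a shift that 3.94% of all tested genes showed upward in replicate 2 and 2.47% downward. The median difference of replicate 2 minus replicate 1 was 0.48 in alpha, 0.34 in beta and -0.05 in gamma members, against 0.01 over all genes. In 15 of 56 members, 8 alpha, 6 beta and 1 gamma, replicate 2 was higher in all 4 groups, as it was in 24.9% of all tested genes, so the count over the members is near that of all genes. In 9 tested members, all of the beta cluster, the 3 pull-downs were lower than Input in replicate 1 and higher in replicate 2, as in 6.09% of all tested genes, and no member showed the opposite, as did 8.36% of all genes. Pcdha5 was higher in replicate 2 by 0.75 on average and Pcdha10 by 0.73, both in 4 of 4 groups, and so were Pcdhb17 by 0.66 and Pcdhb12 by 0.61. Pcdhgc3 went the other way, with differences of -1.33 in Input, -1.25 for LacZ, -0.61 for ODD and -0.64 for EVEN and a mean of -0.96. Pcdhga2 had a mean of -0.43, with ODD at 0.16 against the others. No test was made across the 4 groups, which share their experiment.

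Cell type markers differed between the experiments in the same libraries. The oligodendrocyte markers Mbp, Mog and Sox10 summed to 579.6 CPM in Input replicate 1 and 108 in Input replicate 2, and to 401 to 405 against 73.5 to 76.2 CPM in the pull-downs. Mog did not pass the filter on low counts, so this sum rests on Mbp and Sox10. The motor neuron markers summed to 177 and 348 CPM in Input and to 192 to 199 against 330 to 350 CPM in the pull-downs. The astrocyte markers (Gfap, Aqp4, Slc1a3 and Aldh1l1) summed to 447 and 205 CPM in Input. Their part in the difference of Pcdhgc3 and of the alpha members was not tested, and in these bulk samples fewer cells of a type and less RNA per cell cannot be told apart. Between Input and the pull-downs of an experiment the marker sums differed as well. In replicate 1 the oligodendrocyte sum went from 579.6 to at most 405 CPM and the astrocyte sum from 447 to at most 266 CPM. In replicate 2 the oligodendrocyte sum went from 108 to at most 76.2 CPM and the sum of the neuron markers (Map2, Tubb3, Stmn2, Rbfox3 and Snap25) from 2702 CPM to between 2151 and 2324 CPM. The motor neuron sum of replicate 2 was 348 CPM in Input and 330 to 350 CPM in the pull-downs, and the astrocyte sum 205 and 188 to 203 CPM. The part of these cells in the change of the members over Input was not tested.

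**Figure D4:**
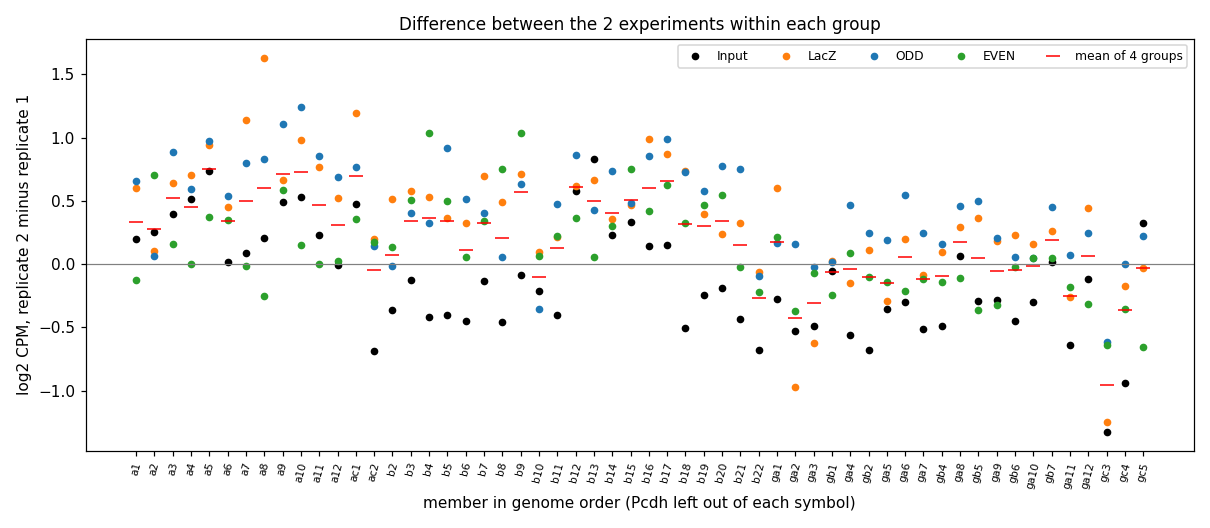
Log2 CPM of replicate 2 minus replicate 1 for the 56 tested members in genome order, with 1 point for each of the 4 groups and a red dash at their mean. Of 21 beta members 6 lie above 0 for Input, 20 for LacZ, 18 for ODD and 19 for EVEN, all 14 alpha members do for LacZ and for ODD, and Pcdhgc3 lies below 0 in all 4 groups with a mean of -0.96.

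Related genes elsewhere in the genome were compared through lists of pathway and family members. Of 12 tested non-clustered protocadherins none was called in any pull-down, and their median log2 fold change was -0.41 for LacZ, -0.35 for ODD and -0.30 for EVEN. The highest of them in Input were Pcdh7, at 111 and 121 CPM in Input and 98.1 to 153 CPM in the pull-downs, and Pcdh9, at 82.3 and 53.5 CPM and 74.3 to 109 CPM. Of 15 tested classical and type II cadherins, which sort motor neuron pools by adhesion, only Cdh4 fell, in EVEN, at -1.04 (SE 0.22, adjusted p 0.0417), with -0.85 for LacZ and -0.92 for ODD. The most abundant, Cdh2, was at -0.57, -0.63 and -0.59 and Cdh6 at -0.46, -0.51 and -0.49, none of them called. The median of the list was -0.25, -0.31 and -0.37. With the replicate block the cadherins that fell numbered 4, 5 and 6, and the non-clustered protocadherins 2, 1 and 2, with 1, 1 and 0 that rose. Over all tested genes 6.98%, 6.46% and 5.37% rose and 0.43%, 0.375% and 0.284% fell without the block, so few calls would be looked for in lists this short. With the block 12.7%, 12.6% and 12.8% of all genes rose and 7%, 6.55% and 6.41% fell. No test was made of the difference between these lists and the clustered genes.

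None of 22 tested chromatin factors known to act at the clusters, such as Ctcf, the cohesin subunits, Smchd1 and the DNA methyltransferases, was called against Input or LacZ, with or without the block. No gene of all those tested was called against LacZ, and the shares of all genes called against Input are those given for the lists above. The median of the chromatin factors was 0.05 for LacZ, 0.09 for ODD and 0.19 for EVEN. Dnmt1, the maintenance methyltransferase, had 250 and 237 CPM in Input and 228 to 290 CPM in the pull-downs. Rad21, a cohesin subunit, had 259 and 276 CPM in Input and 224 and 211 with LacZ probes, but 2353 and 290 with ODD probes and 1644 and 432 with EVEN probes. The ODD and EVEN libraries of replicate 1 were thus far above all others, and the test over both replicates gave 2.43 (SE 0.90, adjusted p 1) for the average of ODD and EVEN compared with LacZ. Of 22 signalling and cytoskeletal partners of the proteins none was called, at medians of -0.35, -0.31 and -0.32. With the block 3, 6 and 6 of them fell and 1, 1 and 0 rose, to be read beside the same shares of all genes. The most abundant were Marcks, at -0.34, -0.29 and -0.31, and Cyfip2, a subunit of the WAVE actin regulatory complex, at -0.40, -0.48 and -0.44.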

How the data were processed

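The members and gene lists were chosen with earlier results of these data known. The authors deposited whole-number counts per Ensembl gene, gene lengths and FPKM for 8 libraries, and the deposited FPKM equals the count scaled by gene length and by the column total. The submitters' processing notes name cutadapt 3.2, Bowtie2 2.4.2, Picard, HTSeq 0.13.5 and GRCm38; the sources used here give neither the strand setting nor the handling of shared exons. Coordinates, symbols and exons were taken from GENCODE M21; 54741 of 55230 matched genes had the deposited length. That release gives 2 rows the symbol Pcdha11; the one that starts 117 bp from the RefSeq start of Pcdha10 is called Pcdha10.

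The tests used edgeR 4.0.16 (R 4.3.3) on the deposited counts (quasi-likelihood, TMM, default filter by group, all 8 libraries, group as the only term), with two-sided p-values adjusted over 16524 genes. CPM uses TMM-scaled library sizes, and fitted log2 values carry edgeR's default prior count. The SE given with an edgeR log2 fold change is its absolute value divided by the square root of the test's F statistic. Replicate numbers are given as a batch in the labels, from 2 independent experiments; deviations from group means correlated at r = 0.517 to 0.719 over the 6 pairs of groups, so the numbers pair the libraries. Replicates differed beyond sampling noise (chi-square per degree of freedom 31.5 to 61.5). P-values over 2 libraries a group measure the spread between these libraries.

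Alternatives were the replicate block, the block with each library's GC trend removed (natural spline, 5 degrees of freedom), that fit recentred, RLE size factors, total library size, a filter of 1 count or of 50 counts in 2 libraries, DESeq2 1.42.0, limma 3.58.1 on log2(FPKM + 1), and leaving out each library. The test was checked on simulated counts. One gene of the oligodendrocyte marker list is not reported here.

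Genes were named by a rule: in each cluster the 4 highest members and the lowest in Input FPKM, the C-type members, members called (the 5 largest where over 15), the 2 largest and the smallest change, the smallest p against LacZ, the largest differences between experiments, and from each list the called and the 2 most abundant genes.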

Additional observations from a re-analysis of the deposited data

Results flagged for a closer look

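In 9 beta members the 3 pull-downs were all lower than the Input of their own experiment in replicate 1 and all higher in replicate 2; 6.09% of all tested genes showed the same pattern, and the difference between the experiments was not tested. Pcdhb1, which did not pass the filter and had 1 to 12 counts a library, showed it too. The mean log2 difference of the 3 pull-downs from Input was -0.25 in replicate 1 and 0.80 in replicate 2 for Pcdhb4, -0.73 and 0.27 for Pcdhb5, and -0.28 and 0.60 for Pcdhb9. It was -0.13 and 0.58 for Pcdhb11, -0.23 and 0.45 for Pcdhb17, and -0.41 and 0.69 for Pcdhb18. It was -0.21 and 0.52 for Pcdhb19, -0.45 and 0.26 for Pcdhb20, and -0.39 and 0.40 for Pcdhb21. None of the 9 was called against Input in the test over both experiments. That test averages differences of opposite sign, so the lack of calls follows largely from how the 9 were picked.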

How the results depend on the processing

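No result changed direction where it was called. The members called higher in LacZ, ODD and EVEN, in that order, numbered 16, 15 and 9 as reported. They numbered 27, 27 and 26 with the replicate block, where 2092, 2086 and 2123 of all 16524 genes rose. With the block and the GC trend removed they numbered 27, 27 and 24, where 1772, 1774 and 1701 of all 16508 genes rose. After recentring they numbered 28, 27 and 25, where 1985, 1996 and 1951 genes rose. With no filter beyond 1 count they numbered 26, 23 and 18, where 1797, 1788 and 1639 of all 28192 genes rose. DESeq2 called 21, 22 and 16 members higher, and 1383, 1333 and 1198 of all 28192 genes. Members called lower numbered 0 as reported. With the block they numbered 1, 2 and 1, where 1157, 1083 and 1059 of all 16524 genes fell. With the GC trend removed they numbered 2, 3 and 4, where 2768, 2798 and 2607 of all 16508 genes fell. After recentring they numbered 1, 1 and 1, where 1825, 1810 and 1741 genes fell. With no filter they numbered 1, 1 and 1, where 321, 276 and 221 of all 28192 genes fell. With limma on log2(FPKM + 1) the member median was 0.41 in ODD and 0.38 in EVEN, a scale that shrinks changes of low genes. Leaving out 1 library at a time gave 6 to 16 members higher in LacZ, 4 to 12 in ODD and 0 to 10 in EVEN, and 0 lower. The medians then ranged from 0.61 to 0.85, 0.56 to 0.93 and 0.59 to 0.77, and for ODD and EVEN against LacZ from -0.25 to 0.0706. On exon bases of 1 gene only, the alpha to beta ratio of median levels in Input was 0.341 and the gamma to beta ratio 0.973. Of the 40 calls of members against Input, 40 were kept with the block and with DESeq2, 29 with limma and 34 with the filter of 50 counts. Fewer were kept when an Input library was left out, and fewer genes were then called over all genes as well. With 2 libraries a group and 491 to 1242 counts over the whole alpha cluster per library, changes of single alpha members are known with SEs of up to 0.60. These SEs hold the spread between the libraries as well as counting error, and the counts are without molecular identifiers.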
